A study of Mus musculus with 189 samples.

Results

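Kdm1a and Kdm1b encode LSD1 and LSD2, the paired members of the flavin-dependent lysine demethylases, and were 2 of the 192 genes assayed by quantitative PCR in mouse oocytes and preimplantation embryos. Both assays passed the quality control of the study, which 36 of the 192 assays failed; only passed genes are used below. They were picked by name, not by their values, and are described here by their levels and by the difference between them in each sample. Over development the transcripts diverged: Kdm1b was lower at the 16- and 32-cell stages than in MII oocytes, while Kdm1a, relative to the 3 control genes, stood close to its oocyte level in dissected late embryos and below it in whole 32-cell embryos.

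LSD1 and LSD2 take methyl groups off mono- and dimethylated lysine 4 of histone H3 (H3K4) by oxidation of the amine. They cannot act on the trimethylated form, which is left to enzymes with a JmjC domain such as the KDM5 proteins. LSD1 works with CoREST and the histone deacetylases in complexes that repress transcription, and embryos from oocytes without LSD1 arrest early. LSD2 does not bind CoREST, and in growing oocytes it is needed to set up DNA methylation at many maternally imprinted loci.

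Oocytes came from superovulated F1 females (C57BL/6 x DBA/2), and embryos from the same kind of female mated to C57BL6 males and cultured in KSOMaa under low oxygen, with no gene altered in any group. Successive comparisons between stages share the samples of the stage between them. The main set covers 58 oocytes or embryos: 11 MII oocytes (eggs arrested at the second meiotic metaphase, not yet fertilized), 14 zygotes, 21 samples of 8 2-cell units, 7 of 3 3-cell embryos, 12 of 6 4-cell embryos, 27 of 7 8-cell embryos, 26 of 2 16-cell embryos and 50 of 7 32-cell embryos. One of the 2-cell units pools 11 blastomeres whose embryos the titles do not give. Set apart were 3 whole 16-cell and 3 whole 32-cell embryos, 1 isolated group each of inner cell mass (ICM) and trophectoderm (TE) cells, and 10 samples of embryonic stem cell (ESC) standard RNA. A cell was put straight into the reverse transcription mix and its cDNA went through 18 cycles of preamplification with the pooled assay primers, ahead of the PCR on a BioMark chip, so each gene was measured once per sample. The number of mice behind each stage is not given in the sources used here, and p-values measure the spread between these oocytes and embryos. The limma tests use 1 spread per gene shared by all stages of a fit, so a stage that varies more also widens the SE of steps between other stages.

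The deposited value is the threshold cycle (Ct), where 1 cycle less means about double the template and a Ct of 30 marks a gene that was not detected. A level below is 30 minus the Ct, minus the mean of the same over Hnrnpr, Ssu72 and Ube2e1, so it is on a log2 scale relative to these control genes. Averaged over the control genes, MII oocytes had a Ct of 12.9 ± 0.325 (SD, n = 11), and 32-cell embryos, by their samples, one of 17.7 ± 0.557 (SD, n = 7). Among stage markers, Dazl, a germ cell RNA-binding protein, had a level of 3.49 ± 0.239 (SD, n = 11) in MII oocytes, where Nanog, an ICM factor, was not detected in any of the 11. Sox2 and Cdx2, factors of the ICM and TE, were detected in all 11, at −3.91 ± 0.573 and −7.90 ± 1.05 (SD). Primer efficiencies are not given, so a level of one gene cannot be set against that of the other. Their difference is compared between stages, and in dilutions of ESC RNA it also moved with the amount of template. In groups of cells and whole embryos, fewer cells of a type and less RNA per cell cannot be told apart.

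**Figure D1:**
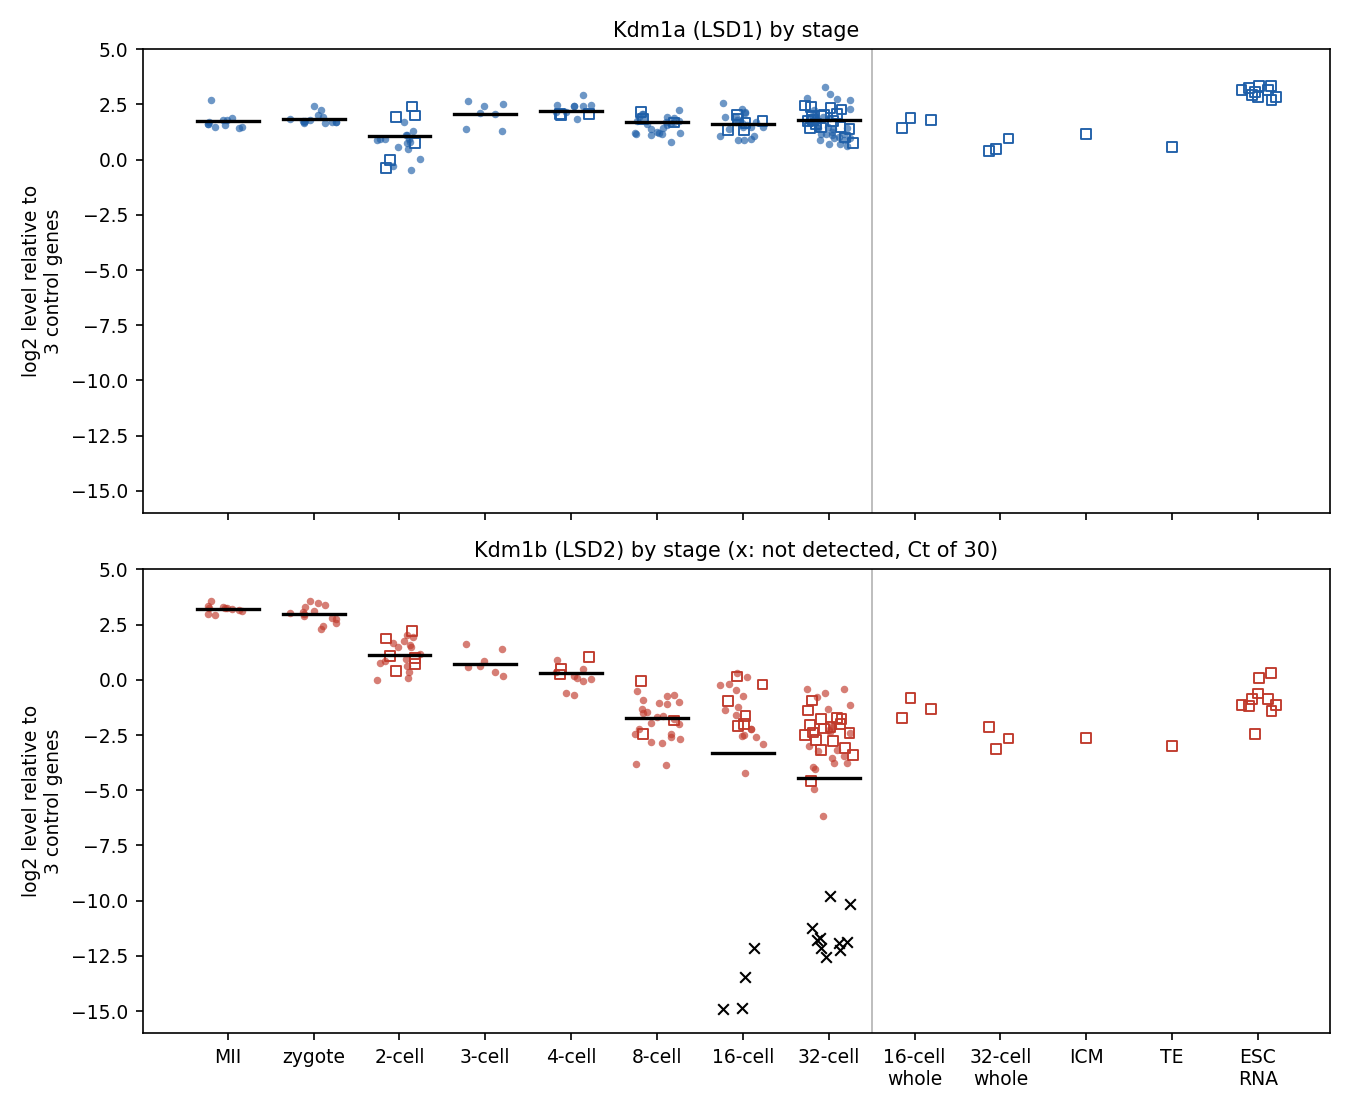
Level of Kdm1a (upper panel) and Kdm1b (lower panel) in every sample, in log2 units relative to the mean of 3 control genes, by stage; dots are single cells, squares are groups of cells, whole embryos, RNA or samples of unstated cell number, crosses are samples with no Kdm1b detected, and bars are means over oocytes or embryos. The Kdm1a bars span 1.05 to 2.20, with whole 32-cell embryos lower at 0.387 to 0.956, and Kdm1b steps down from 3.22 in MII oocytes to −4.43 at the 32-cell stage, with 14 crosses in late single cells.

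Kdm1b, the oocyte paralog, was highest in MII oocytes and stood lower at every later stage, in the order of development. In MII oocytes its level ran from 2.96 to 3.57 with a median of 3.24, and in zygotes from 2.31 to 3.56 with a median of 3.01. These groups overlapped, and the mean difference of −0.25 ± 0.28 (SE) did not pass the test (limma adjusted p = 0.765), where 1.92% of all genes were called. That SE includes the late stages: the SD of Kdm1b was 0.168 in MII oocytes and 0.381 in zygotes, against 1.22 at the 32-cell stage. By the 2-cell stage every sample lay below every oocyte and zygote, at −0.00174 to 2.21 with a median of 1.09 over the 21 samples, and the groups did not overlap. Over oocytes and embryos Kdm1b fell by 1.84 ± 0.30 (SE) from zygote to 2-cell (limma adjusted p = 4.93e-07), in a comparison that called 68.6% of all genes. That is a 3.57-fold lower level if 1 cycle stands for 1 doubling. In dilutions of ESC RNA, Kdm1b moved by 1.40 and 1.41 cycles per doubling.

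The next steps of Kdm1b were smaller or larger than the spread in turn. The means were 1.14 ± 0.67 (SD, n = 8) at the 2-cell, 0.71 ± 0.35 (SD, n = 3) at the 3-cell and 0.29 ± 0.55 (SD, n = 6) at the 4-cell stage. Neighbours in that order did not pass the test (limma adjusted p = 0.739 and 0.707), nor did 2-cell against 4-cell (−0.85 ± 0.37 (SE), limma adjusted p = 0.0726), where 32.7% of genes were called. From 4-cell to 8-cell Kdm1b fell by 2.02 ± 0.38 (SE) to a mean of −1.73 ± 0.98 (SD, n = 7) (limma adjusted p = 1.16e-05), with 49.4% of genes called. The 8-cell embryos ranged from −2.76 to −0.0632 and the 4-cell embryos from −0.63 to 1.04, so that only their edges overlapped.

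After the 8-cell stage the mean of Kdm1b depends on cells in which it was not detected. The 2 16-cell embryos had means of −2.39 and −4.28, and the 7 32-cell embryos ran from −6.14 to −2.57 with a median of −4.28. The step from 8-cell to 16-cell was −1.60 ± 0.55 (SE, limma adjusted p = 0.024, 28.2% of genes called), but it was −0.66 (adjusted p = 0.723) without the 16-cell embryo mor.5, and 0.42 (adjusted p = 0.525) when the samples of an embryo were averaged on the linear scale. The step from 16-cell to 32-cell, −1.10 ± 0.55 (SE), did not pass the test (limma adjusted p = 0.203), where 10.9% of genes were called, and with the linear average it was −1.35 (adjusted p = 0.0419). From MII oocytes to both late stages Kdm1b fell by 7.41 ± 0.31 (SE) (limma adjusted p = 2.93e-28), and the change was −5.52 with the linear average. In that comparison 84.6% of all genes were called, 46.8% as lower, and 6 genes fell further than Kdm1b.

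Kdm1a, which encodes the CoREST-bound demethylase, was detected in every sample of the main set and its stage means spanned 1.05 to 2.20. In MII oocytes its level ran from 1.42 to 2.69 with a median of 1.62, and in the samples of 32-cell embryos from 0.633 to 3.30 with a median of 1.66. The groups overlapped. From MII oocytes to the late stages, in dissected embryos, it differed by 0.01 ± 0.21 (SE, limma adjusted p = 0.967), and none of the other genes lay closer to 0, while the median of all genes was −0.35. That value depends on the control genes: it was 0.49 (adjusted p = 0.0212) without Ssu72, −0.30 without Ube2e1, 0.34 with each sample centred on the median of 63 genes, −3.55 (adjusted p = 4.10e-21) in the deposited normalized table and −4.29 (adjusted p = 5.07e-11) with no control genes. The median of all genes moved with these scalings, to 0.13, −0.66, −0.02, −3.91 and −4.65 in that order. Each scaling shifts all genes of a sample by the same amount. The distance of Kdm1a above the median, 0.36, is therefore the same in every setting by construction and is no check of the scaling.

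The order of the Kdm1a means was 4-cell (2.20), 3-cell (2.06), zygote (1.85), 32-cell (1.78), MII (1.73), 8-cell (1.71), 16-cell (1.62) and 2-cell (1.05). No pair of neighbours in this order passed the test; the nearest was 16-cell against 2-cell, at −0.56 ± 0.38 (SE, limma adjusted p = 0.22). In order of development, Kdm1a fell by 0.80 ± 0.21 (SE) from zygote to 2-cell (limma adjusted p = 0.000757; −0.37, adjusted p = 0.167, without Hnrnpr among the control genes) and rose by 1.15 ± 0.26 (SE) from 2-cell to 4-cell (limma adjusted p = 0.000714). The other steps did not pass: 0.12 from MII to zygote, −0.49 from 4-cell to 8-cell (limma adjusted p = 0.123), −0.09 from 8-cell to 16-cell and 0.16 from 16-cell to 32-cell.

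The dip of Kdm1a at the 2-cell stage lay in one series of sample titles. The 5 2-cell units whose titles hold the letter A, a letter the labels do not explain, had Kdm1a means from −0.36 to 0.81, and the 3 whole 2-cell embryos with titles without it had 1.93, 2.00 and 2.41. These did not overlap. With the titles without A alone, Kdm1a differed from zygotes by 0.26 (adjusted p = 0.277), and with the titles with A alone by −1.43 (adjusted p = 2.82e-09). Kdm1b was alike in both series, with means of 1.16 ± 0.55 (SD, n = 5) and 1.11 ± 0.97 (SD, n = 3), and stood 1.81 (adjusted p = 1.29e-05) and 1.87 (adjusted p = 0.000262) below the zygotes. Control genes averaged a Ct of 16.8 in the units with A and of 14.5 in those without. All samples with A are labelled as blastomeres and all those without it as embryos. The title series and the labelled kind of sample therefore cannot be told apart. Their part, or that of the amount of template, in the dip was not tested.

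**Figure D2:**
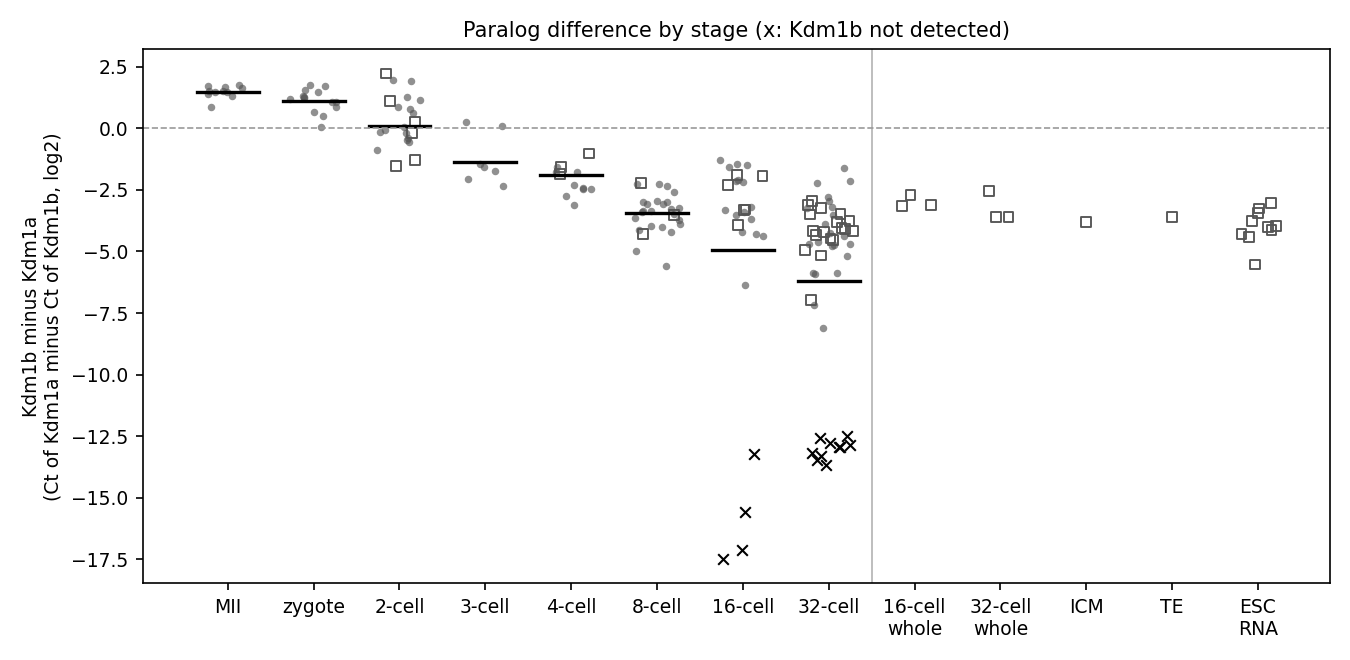
Kdm1b minus Kdm1a in every sample (Ct of Kdm1a minus Ct of Kdm1b, log2 units) by stage; dots are single cells, squares are groups of cells, whole embryos, RNA or samples of unstated cell number, crosses are samples with no Kdm1b detected, bars are means over oocytes or embryos and the dashed line marks equal Ct. All oocytes and zygotes lie above 0 and all samples from the 4-cell stage on lie below it.

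The control genes cancel in the difference of both members, so Kdm1b minus Kdm1a needs no choice of scaling. In MII oocytes it ran from 0.885 to 1.75 with a median of 1.53 and in zygotes from 0.0767 to 1.76 with a median of 1.22, so that Kdm1b had the lower Ct in every oocyte and zygote. All 12 samples of 4-cell embryos were below 0, from −3.10 to −1.02, as were all 27 of 8-cell embryos, from −5.58 to −2.22. The change of sign fell at the 2- and 3-cell stages, where samples lay on both sides: 2-cell samples ran from −1.53 to 2.23 and 3-cell samples from −2.33 to 0.264. Among the 3-cell samples, embryo 1 held −2.33, 0.11 and 0.26, embryo 2 held −2.06, −1.58 and −1.46, and the sample of embryo 3 had −1.72. Where 0 falls depends on the primers.

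Over oocytes and embryos the difference was 1.49 ± 0.244 (SD, n = 11) in MII oocytes, 1.13 ± 0.471 (SD, n = 14) in zygotes, 0.0877 ± 1.25 (SD, n = 8) at the 2-cell, −1.36 ± 0.61 (SD, n = 3) at the 3-cell, −1.91 ± 0.67 (SD, n = 6) at the 4-cell and −3.44 ± 0.759 (SD, n = 7) at the 8-cell stage. Each step between successive stages tested up to the 8-cell stage passed a two-sided permutation test adjusted over 7 comparisons. From MII to zygote the change was −0.36 (permutation test with 100000 resamples, p = 0.0231, adjusted p = 0.0323), with overlapping groups. The lowest differences among zygotes, 0.68, 0.08 and 0.49, came from those with the lowest mean control Ct (12.4, 12.2 and 11.9). The MII oocyte with the lowest control Ct, 12.3, also had the lowest difference of the oocytes, 0.885. The part of template amount in this step was not tested. From zygote to 2-cell the change was −1.04 (exact permutation test, adjusted p = 0.0172), from 2-cell to 4-cell −1.99 (exact, adjusted p = 0.0136) and from 4-cell to 8-cell −1.53 (exact, adjusted p = 0.0136). With 2-cell titles with A alone the step from zygotes was −0.38 (exact permutation test, adjusted p = 0.274) and that to the 4-cell stage −2.65 (exact, adjusted p = 0.00758); with titles without A alone they were −2.13 (exact, adjusted p = 0.00515) and −0.90 (exact, adjusted p = 0.162). The difference between the series in these steps was not tested.

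From the 8-cell stage on the steps of the difference did not pass. The 2 16-cell embryos averaged −3.86 and −6.03, and the 7 32-cell embryos ran from −7.52 to −4.36. The change from 8-cell to 16-cell was −1.51 (exact permutation test, p = 0.139; the smallest p that 7 against 2 embryos allow is 0.0278), and it was 0.46 when the samples without detected Kdm1b were left out. From 16-cell to 32-cell it was −1.26 (exact permutation test, p = 0.194), and −1.49 (exact, adjusted p = 0.0324) among samples with Kdm1b detected. From MII oocytes to both late stages together the change was −7.42, with no overlap between 11 oocytes and 9 embryos (exact permutation test, p = 5.95e-06, the smallest this design can give; adjusted p = 4.17e-05). Leaving out the samples without detected Kdm1b made it −5.62, summing both transcripts over the samples of an embryo on the linear scale made it −5.48, and setting every Ct above 25 to 25 made it −6.44.

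Kdm1b dropped out of single late cells while Kdm1a did not. It was not detected in 4 of 20 single cells of 16-cell embryos and 10 of 32 of 32-cell embryos, in 14 of 52 (26.9%) together, against 0 of 24 groups of cells and none of the samples up to the 8-cell stage. These 14 cells came from 8 of the 9 embryos, with 3 each from the 16-cell embryo mor.5 and the 32-cell embryos blast.01 and blast.08. Of all genes, 36 were undetected in more of the 76 late samples than Kdm1b and 78 were detected in all of them, Kdm1a included. Detected Kdm1b reached a Ct of 24.4 at most, and no late sample of the main set had a Ct between that and 30.

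The cells without detected Kdm1b had Kdm1a levels of 0.633 to 3.00 with a median of 1.43, and the 38 single cells with it had 0.699 to 3.30 with a median of 1.48. Their mean control Ct ran from 15.1 to 20.2 with a median of 17.97, against 14.4 to 19.5 with a median of 17.4. Of the 14 cells without detected Kdm1b 10 came from 32-cell embryos, and of the 38 with it 22. The cells without it also lacked a median of 27.5 of all genes, a count that includes Kdm1b itself, against 23 in the single cells with it. The ranges of all these measures overlapped, and the part of template amount in the loss of signal was not tested. Among the cells without detected Kdm1b, the pair with the lowest Kdm1a Ct, at 12.5 and 12.9, came from the 16-cell embryo mor.5. Their mean control Ct values were 15.1 each. At the other end, a cell of the 32-cell embryo blast.10 had the highest mean control Ct, 20.2. Cells at the ends of a range do not describe the other cells without detected Kdm1b.

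From the 3-cell stage on, sister blastomeres differed less in Kdm1a than in most genes, while at the 2-cell stage this depended on the samples used. In single cells of 2-cell embryos (4 cells of 2 embryos) the SD of Kdm1a was 0.709, the median gene had 0.581 and 57 genes varied more. Over all 5 blastomere samples of these embryos the SD of Kdm1a was 0.587 against 0.659, with 92 genes above it. At the 3-cell stage (6 cells of 2 embryos) it was 0.528 against 0.665, with 97 genes above it. The SD within 8-cell embryos (24 single cells of 4 embryos) was 0.305 for Kdm1a and 0.613 for Kdm1b, with a median of 0.643 over all genes; 149 genes varied more than Kdm1a and 86 more than Kdm1b. At the 4-cell stage (9 cells of 3 embryos) the SD of both was 0.254 and 0.30, and that of their difference was 0.142. In single cells of 32-cell embryos it was 0.534 for Kdm1a and 4.70 for Kdm1b, and 1.49 for Kdm1b among cells with Kdm1b detected, where the median gene had 1.24.

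Whole embryos can be compared per embryo without control genes, as 30 minus the Ct, and average over the cells. This value is called content below. No added standard is given in the sources used here, so transcript content and the yield of the reactions cannot be told apart. On the scale of 30 minus the Ct, MII oocytes had a mean Kdm1b of 20.3 ± 0.424 (SD, n = 11) and zygotes one of 20.0 ± 0.42 (SD, n = 14), against 17.0, 16.6 and 16.2 in the 3 whole 2-cell embryos. It fell by 3.46 ± 0.33 (SE) per embryo from zygote to 2-cell (limma adjusted p = 2.59e-11), where 77.6% of all genes were called and the median gene differed by −1.79. Kdm1a was 18.3, 18.1 and 16.3 in the same 2-cell embryos against 18.9 ± 0.642 (SD, n = 14) in zygotes, a difference of −1.33 ± 0.41 (SE, limma adjusted p = 0.00394) that was −0.71 (adjusted p = 0.16) without 2-cell embryo 3. Relative to control genes the fall of Kdm1b was 1.87 (adjusted p = 3.56e-06), and Kdm1a differed by 0.26 (adjusted p = 0.195).

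**Figure D3:**
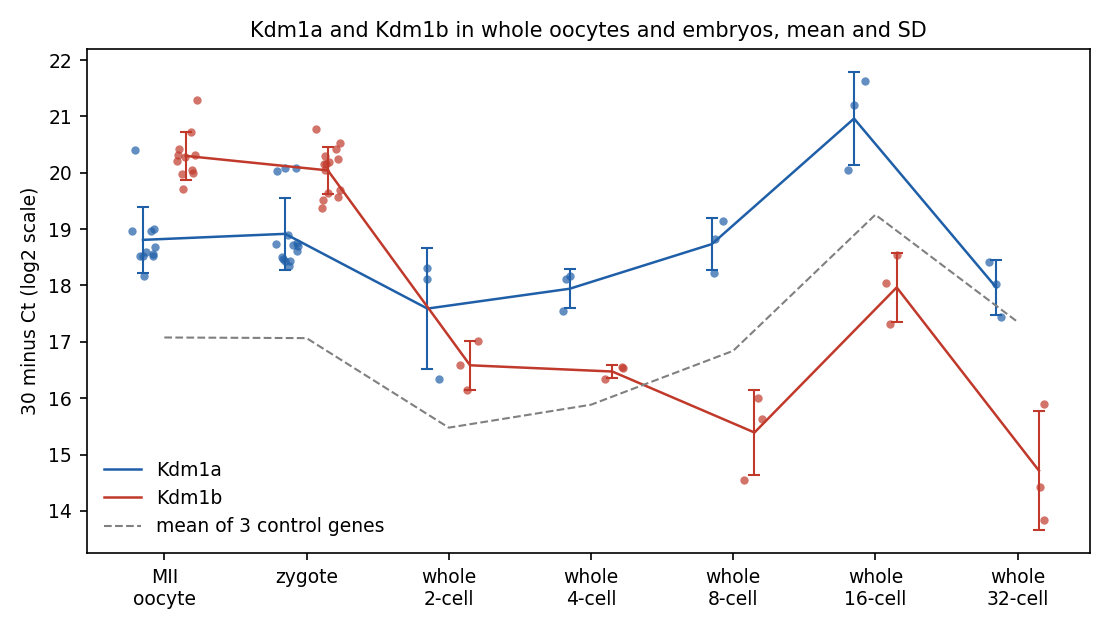
Kdm1a and Kdm1b in MII oocytes, zygotes and whole embryos as 30 minus the Ct (log2 scale, no control genes); points are single oocytes, zygotes or embryos, lines join the means, bars are the SD and the dashed line is the mean of the 3 control genes. The lines of the paralogs cross between the zygote and the 2-cell embryo and run nearly parallel from the 8-cell embryo on.

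In later whole embryos the paralog difference was of like size at each stage. It was −4.29, −3.52 and −2.22 in the 3 8-cell embryos, −2.72, −3.10 and −3.17 in the 3 16-cell embryos and −3.61, −3.61 and −2.53 in the 3 32-cell embryos, so that the 3 stages overlapped. The steps were 0.35 and −0.25 (exact permutation test, p = 0.7 and p = 0.6; 3 against 3 cannot go below 0.1). From MII oocytes to the 6 late whole embryos the difference changed by −4.61 with no overlap (exact permutation test, p = 8.08e-05, the smallest this design can give). The ratio of linear sums over the samples of each dissected embryo was −2.95 ± 0.207 (SD, n = 2) at the 16-cell stage, near the whole embryos, and −4.28 ± 0.64 (SD, n = 7) at the 32-cell stage, where the range of −5.14 to −3.41 overlaps that of the whole embryos at its upper end. The dissected samples also differed from whole embryos in their make-up by lineage, given below.

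In content per embryo both paralogs moved with the whole panel between late stages. The mean control Ct moved as well, at 13.2, 10.7 and 12.6 in whole 8-, 16- and 32-cell embryos. From 8-cell to 16-cell whole embryos Kdm1a rose by 2.23 ± 0.53 (SE) and Kdm1b by 2.57 ± 0.43 (SE) (limma adjusted p = 0.000245 and 2.05e-06), and from 16-cell to 32-cell Kdm1a changed by −2.999 and Kdm1b by −3.25 (limma adjusted p = 6.84e-06 and 7.29e-08). The median of all genes moved by 2.79 and −2.46 in these steps, with 80.1% and 65.4% of genes called. Relative to control genes the first step was −0.19 for Kdm1a and 0.16 for Kdm1b and passed for neither, and the second, in which Kdm1a fell from 1.45, 1.79 and 1.88 to 0.387, 0.488 and 0.956, was −1.10 (adjusted p = 0.000224) for Kdm1a and −1.35 (adjusted p = 0.00813) for Kdm1b. From MII oocytes to whole 32-cell embryos the content of Kdm1b fell by 5.59 ± 0.34 (SE, limma adjusted p = 1.05e-16), while that of Kdm1a differed by −0.85 ± 0.42 (SE, limma adjusted p = 0.0614), with 83.3% of genes called. Relative to control genes Kdm1a fell by 1.12 ± 0.18 (SE) in this comparison (limma adjusted p = 1.21e-06), and all 3 whole 32-cell embryos lay below the lowest MII oocyte. Without 32-cell embryo 3 the content difference of Kdm1a was −1.07 (adjusted p = 0.0464), and without 2-cell embryo 3, which alters only the shared spread, its adjusted p was 0.0436.

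Late blastomeres split between the first lineages, and Kdm1b leaned to the TE side. The lineage score is the mean level of 12 ICM core genes minus that of 8 TE core genes, sets that the study chose on these samples and that hold neither paralog. Over the 76 samples, which share 9 embryos, the Spearman rho with the score was −0.53 for Kdm1b, 0.14 for Kdm1a and −0.572 for their difference. Only 2 of the 136 genes outside the core sets had a lower rho than Kdm1b; their median was 0.0878. In the 6 embryos with at least 6 samples the rho of Kdm1b was −0.629, −0.2, −0.543, −0.126, −0.621 and, in blast.08, 0.224.

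**Figure D4:**
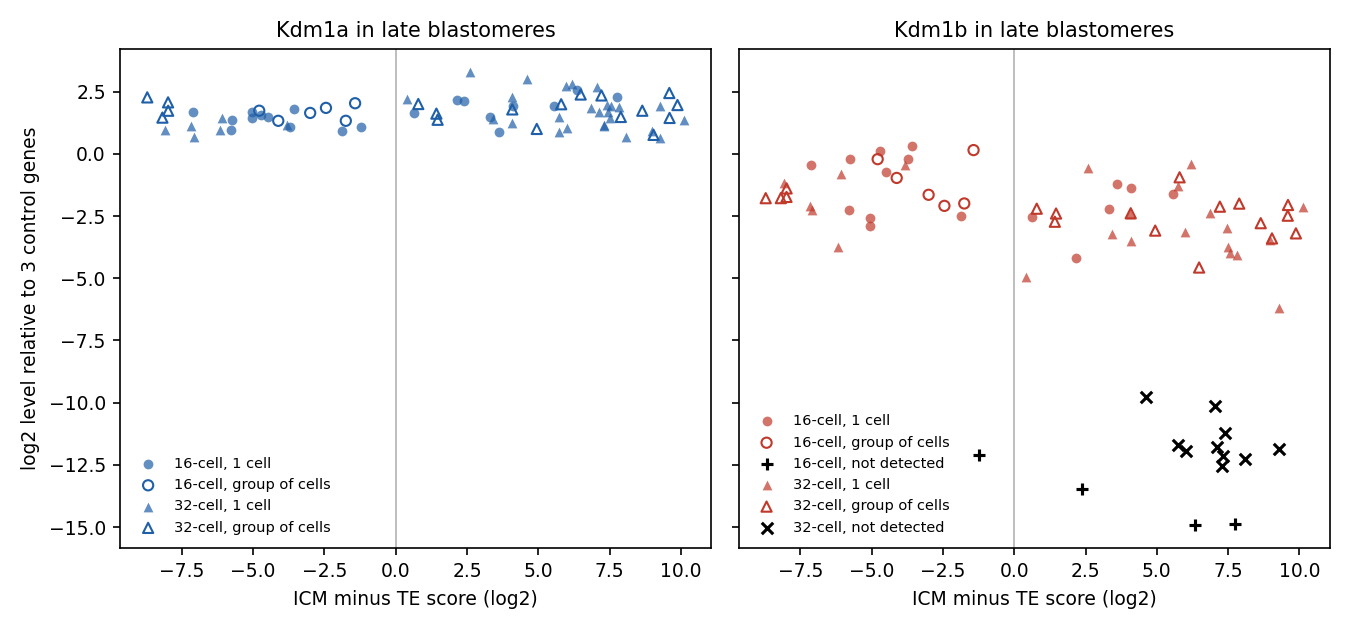
Level of Kdm1a (left) and Kdm1b (right), in log2 units relative to 3 control genes, against the ICM minus TE score in the 76 late blastomere samples; filled marks are single cells, open marks groups of cells, and black marks on the right samples with no Kdm1b detected. Of the 14 black marks 13 lie at scores above 0, and the Kdm1a levels above and below 0 overlap.

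Samples with a score above 0, on the ICM side, had a median Kdm1b of −3.19 (n = 49) and those below 0 a median of −1.64 (n = 27), with ranges that overlapped. By stage, 9 of 26 samples of 16-cell embryos and 40 of 50 of 32-cell embryos had a score above 0. The whole 32-cell embryos scored −2.79, −3.28 and −3.51. The part of this make-up in the late steps, and in the gap between dissected and whole 32-cell embryos for both paralogs, was not tested. Kdm1b was not detected in 13 of 35 single cells above 0 and in 1 of 17 below 0. The medians of Kdm1a were 1.79 and 1.46. The control Ct moved with the score as well: its median was 17.6 in the samples above 0 and 16.0 below 0, its rho with the score was 0.382 and with Kdm1b −0.363, and its part in the relation was not tested. Among samples with Kdm1b detected the rho was −0.455 (n = 62), and within the 16-cell and 32-cell samples alone −0.437 (n = 26) and −0.44 (n = 50). For Kdm1a the rho was 0.429 within the 16-cell samples, with medians of 1.94 above 0 and 1.47 below, and −0.0242 within the 32-cell samples.

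The isolated groups gave no such contrast. The ICM group had a Kdm1a level of 1.16 and a Kdm1b level of −2.65, and the TE group had 0.585 and −3.003, with paralog differences of −3.80 and −3.59. The TE group did carry more of Cdx2, a TE factor (1.84 against 0.43), and less of Sox2, an ICM factor (−6.01 against −0.17), but the ICM group also had Gata3 and Krt8, TE genes, at 1.53 and −0.07 against 2.73 and 1.00. With 1 sample each there is no replicate check.

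**Figure D5:**
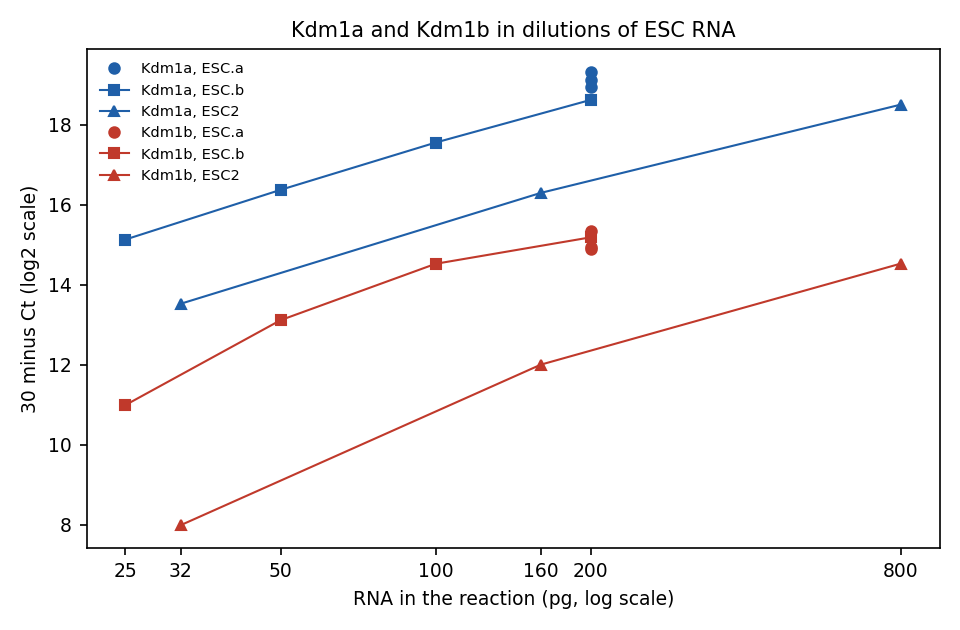
Kdm1a and Kdm1b as 30 minus the Ct (log2 scale) against the amount of ESC RNA in the reaction (pg, log scale); circles are 3 repeats at 200 pg, squares and triangles are 2 dilution series. The Kdm1b lines are steeper than the Kdm1a lines in both series.

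ESC RNA, which comes from cultured counterparts of the ICM, held both paralogs in all 10 samples. Kdm1a levels ran from 2.72 to 3.35 with a median of 3.11, all above the highest MII oocyte. Kdm1b ran from −2.46 to 0.312 with a median of −0.99. The paralog difference had a median of −3.99 and ran from −5.53 at 32 pg to −3.03 at 100 pg, with 3 repeats at 200 pg at −4.01, −4.42 and −3.78.

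The dilutions show how the assays followed the template. For each doubling of RNA, 30 minus the Ct of Kdm1a grew by 1.16 and 1.07 in the 2 series (4 and 3 amounts), and that of Kdm1b by 1.40 and 1.41, where an assay that doubles in every cycle gives 1. The fitted slope of the paralog difference was therefore 0.233 and 0.336 per doubling. In the first series it was −4.13 at 25 pg, −3.25 at 50 pg, −3.03 at 100 pg and −3.43 at 200 pg, and in the second −5.53 at 32 pg, −4.29 at 160 pg and −3.97 at 800 pg. The lowest amount had the lowest difference in both series, while the other amounts of the first were not in order. At 32 pg the control Ct was 19.5 and the Kdm1b Ct 22.01. The mean control Ct of the stages ran from 12.9 in MII oocytes to 17.7 at the 32-cell stage, and the part of this steepness in the differences between stages was not tested.

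The genes with stage means most like Kdm1b, by Pearson's r over the 8 stages, were Pcgf1, a PRC1 subunit (0.986), Jhdm1d, a JmjC demethylase (0.975), and Tet3, the oocyte enzyme that oxidizes methylated cytosine (0.975). The least like was Nanog (−0.954), the ICM factor. For Kdm1a the highest were the histone chaperone Hira (0.555), Ube2e1 (0.531), itself a control gene, and Jmjd6 (0.432), and the lowest was Tspan8 (−0.461), so no gene of the panel followed it closely. The paralogs themselves had an r of 0.0304. These are descriptions over 8 means that share their control genes.

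Other genes that act on H3K4 went both ways. From MII oocytes to the late stages, 4 of 6 other H3K4 demethylase genes rose, 1 fell and 1 was not called, with a median of 4.35 against −0.35 over all genes. The 6 include Kdm5d, at 6.41, a gene of the Y chromosome, which oocytes lack. The sex of the embryos is not given in the sources used here. The largest rise was 2410016O06Rik, also known as NO66, at 10.5 ± 1.46 (SE, limma adjusted p = 5.5e-09), and the fall was that of Kdm2b, at −2.01 ± 0.24 (SE, limma adjusted p = 6.23e-11). Of 9 genes of the opposing H3K4 methyltransferases and their complexes, 3 rose and 4 fell. Mll1 was highest at 5.61, and Cxxc1, a CpG-binding subunit, was lowest at −1.85. The level of an undetected gene is set by the control Ct and moves up with it. Nanog, detected in 0 of 11 MII oocytes, had a mean level of −17.1 there. Undetected Kdm1b in late single cells stood at −14.9 to −9.78. A gene detected at neither end would thus show a higher late level. Detection of the listed genes is not given here, and the part of this shift in their differences was not tested.

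Of the 3 partner genes on the panel Hdac1, the deacetylase of the LSD1 complexes, and Ehmt2, an H3K9 methyltransferase, rose (Ehmt2 by 5.77 ± 1.15 (SE), limma adjusted p = 1.02e-05), and Whsc1l1 fell by 0.99 ± 0.25 (SE) (limma adjusted p = 0.000373). In DNA methylation, the process that LSD2 serves in oocytes, 2 of 5 genes rose and 2 fell, with Tet1 at 8.48 and Tet3 at −11.0. Of 9 H3K9 demethylase genes 4 rose and 4 fell, from Kdm4c at 4.41 to Jhdm1d at −5.11. Of 7 other JmjC genes 1 rose, Jmjd4 at 2.46, and 6 fell, with Kdm6a lowest at −3.09. In the whole panel 37.8% of genes rose and 46.8% fell in this comparison. The shift in the level of undetected genes applies to these lists and to the panel as well, and its part was not tested.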

How the data were processed

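Levels of 192 genes were measured in 189 samples by real-time PCR after 18 cycles of target amplification, once per gene and sample. The authors deposited Ct values, treated here as a score, with undetected genes set to 30, and a normalized table on a log2 scale. The deposited log2 table equals 30 minus the Ct relative to Gapdh, Hspa8 and Lmnb1, which are marked as failed, whereas the methods name Hnrnpr, Ssu72 and Ube2e1; levels were therefore computed from the deposited Ct scores with the latter 3. Of the 192 assays, 36 marked as failed were left out. Set apart from the main set were whole late embryos with isolated ICM and TE groups, ESC RNA, and 3 samples with low control genes that the study left out. Real-time PCR has no read depth; 12.4% of the values of passed genes in the main set were not detected. The chip on which each assay ran is not given in the sources used here, so a shift between chips could enter the paralog difference.

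Samples were grouped by their labels, and values were averaged within each oocyte or embryo, which gave 58 units. Stages were compared with limma 3.58.1 in R 4.3.3 over all passed genes, with Benjamini-Hochberg adjustment per comparison and a threshold of 0.05. The paralog difference was compared with two-sided permutation tests on the mean, exact or with 100000 resamples, adjusted over 7 comparisons. Figures and summaries used Python 3.11.15, numpy 2.4.6, pandas 2.3.3, scipy 1.17.1 and matplotlib 3.10.9. The fits were tried on simulated normal values with 1 SD per gene at all stages. Such values hold neither undetected samples nor a spread that differs by stage, so they do not check these features of the data. Both members and all lists were chosen with earlier results of these data known. Genes named are the members, the control genes, for each member the 3 most and the 1 least alike in stage means, and the largest rise and fall of each list; Hdac1, the marker genes and the genes of the isolated groups were added after their values were seen. Alternatives changed the control genes, the floor, the averaging within an embryo, the samples and the genes. The linear average and linear sum, the split of 2-cell titles, the ratio in whole oocytes and embryos alone and the lineage score within each late stage were chosen after seeing the data.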

Additional observations from a re-analysis of the deposited data

How the results depend on the processing

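The fall of Kdm1b from MII oocytes to the late stages and from zygote to 2-cell kept its direction under every alternative run. With every sample as 1 unit, Kdm1b did not pass from zygote to 2-cell (−1.83), from 4-cell to 8-cell (−2.04) or from 8-cell to 16-cell (−1.50). In that fit the SE of Kdm1b was 0.98 from zygote to 2-cell and 0.99 from 4-cell to 8-cell. Over oocytes and embryos it was 0.30 and 0.38. The spread shared by that fit includes late samples, with a Kdm1b SD of 4.72 (16-cell) and 3.82 (32-cell). All zygotes (lowest 2.31) lay above all 2-cell samples (highest 2.21), while 4-cell and 8-cell samples overlapped. With every sample as 1 unit, Kdm1a from 4-cell to 8-cell passed (−0.69). Kdm1a was 0.011 from 8-cell to 16-cell and −0.0773 from MII to late. The late steps rest on 2 16-cell embryos and on samples in which Kdm1b was not detected, and the Kdm1a values depend on which control genes are used. Of the alternatives that leave out no unit, 257 values kept direction and side of the threshold, 28 changed sign, 18 lost and 21 gained the threshold and 1 correlation moved; the cause was not tested beyond what each alternative changes.

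Without Hnrnpr, Kdm1a was −0.0211 from MII to zygote, −0.37 from zygote to 2-cell (no longer called), −0.81 from 4-cell to 8-cell (called), 0.0018 from 8-cell to 16-cell, −0.0124 from 16-cell to 32-cell and −0.16 from MII to late, and Kdm1b was −0.94 from 2-cell to 4-cell (called). Without Ube2e1, Kdm1a was −0.0084 from 16-cell to 32-cell and −0.30 from MII to late, and without Ssu72 it was 0.49 from MII to late (called). With no control genes, Kdm1a was −1.81 from 16-cell to 32-cell and −4.29 from MII to late (called), and Kdm1b was 0.43 from 2-cell to 4-cell and −3.07 from 16-cell to 32-cell (called). With samples centred on their median, Kdm1a was −0.0914 from 16-cell to 32-cell. With the deposited table, Kdm1a was −0.68 from 4-cell to 8-cell (called), −1.97 from 8-cell to 16-cell (called), −0.997 from 16-cell to 32-cell and −3.55 from MII to late (called), and Kdm1b was −1.15 from 2-cell to 4-cell and −2.26 from 16-cell to 32-cell (both called). From MII to late the calls split into 59 higher and 73 lower, 20 and 115 with the deposited table, and 19 and 117 with no control genes.

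For Kdm1b from 2-cell to 4-cell the call appeared with a common floor (−0.85), with medians over an embryo (−0.88), with 3 low samples added (−0.85) and with the linear mean (−0.86). From 8-cell to 16-cell Kdm1b was −1.01 with a common floor, −0.16 with medians, −0.38 with whole late embryos added and 0.42 with the linear mean, none of them called; from 16-cell to 32-cell it was −1.40 with a common floor, −1.79 with whole embryos added and −1.35 with the linear mean, all called. Kdm1a was 0.0388 from 8-cell to 16-cell and −0.78 from 4-cell to 8-cell (called) in single cells only, −0.24 from 16-cell to 32-cell and −0.22 from MII to late with whole embryos added, and −0.0663 from MII to late with medians. With 2-cell titles without A, Kdm1a was 0.26 from zygote to 2-cell and 0.0877 from 2-cell to 4-cell.

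In whole embryos relative to control genes, Kdm1a was 0.26 from zygote to 2-cell, −0.0544 from 2-cell to 4-cell, −0.16 from 4-cell to 8-cell, −0.19 from 8-cell to 16-cell and −1.12 from MII to 32-cell (called), and Kdm1b was −2.04 from 4-cell to 8-cell (called) and 0.16 from 8-cell to 16-cell (not called). With 3 more 2-cell samples, Kdm1a was 2.12 (called) and Kdm1b 0.56 from 2-cell to 4-cell.

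The paralog difference lost its call from MII to zygote (−0.36) with single cells or whole embryos only, where the other adjusted comparisons differ; from zygote to 2-cell with single cells (−0.69) and titles with A (−0.38); from 2-cell to 4-cell with single cells (−2.78), whole embryos (−0.46) and titles without A (−0.90); and from 4-cell to 8-cell with single cells (−1.16) and whole embryos (−1.87). From 8-cell to 16-cell it was 0.46 without undetected samples, 0.39 with linear sums and 0.35 in whole embryos, and from 16-cell to 32-cell −1.49 (called) without undetected samples. With no control genes the rho of Kdm1a with the lineage score was −0.334.

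Without 1 unit at a time, the step from 8-cell to 16-cell ran from −0.23 to 0.0524 for Kdm1a and from −2.54 to −0.66 for Kdm1b, the latter without 16-cell embryo mor.5. Whole embryos without 1 replicate ran from −1.68 to −0.71 for Kdm1a from zygote to 2-cell, from −0.27 to 0.71 for Kdm1a and from −0.33 to 0.11 for Kdm1b from 2-cell to 4-cell, from −1.39 to −0.66 for Kdm1b from 4-cell to 8-cell (called without 8-cell embryo 3, 2-cell embryo 3 or 32-cell embryo 1 or 3), and from −1.07 to −0.59 for Kdm1a from MII to 32-cell. With the replicate block, MII to zygote was 0.13 for Kdm1a and −0.21 for Kdm1b, neither called, with 12 genes called against 3 without; the deviations of 11 same-numbered pairs had a median correlation of −0.122, so the numbers were not taken to pair samples. Called genes ran from 6 to 72 against 51 from 2-cell to 4-cell, 42 to 85 against 77 from 4-cell to 8-cell, 16 to 79 against 44 from 8-cell to 16-cell and 6 to 75 against 17 from 16-cell to 32-cell; MII to zygote had 0 with no control genes. In whole embryos they ran from 1 to 14 against 4, 1 to 38 against 1, 32 to 62 against 40, 49 to 127 against 125 and 64 to 111 against 102 for MII to zygote, 2-cell to 4-cell, 4-cell to 8-cell, 8-cell to 16-cell and 16-cell to 32-cell.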

Other observations

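The 3 samples with low control genes were left out of the main set, following the study. The MII oocyte had a Kdm1a level of 1.51, a Kdm1b level of 2.73 and a mean control Ct of 15.1, and its paralog difference of 1.22 lay within the range of the other oocytes. A 32-cell blastomere of embryo blast.09 had a Kdm1a level of 4.49, no Kdm1b detected and a mean control Ct of 22.7. A 32-cell blastomere of embryo blast.11 had a Kdm1a level of 3.38, a Kdm1b level of −0.47 and a paralog difference of −3.85, at a mean control Ct of 20.9.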
